A study of Mus musculus with 12 samples.

Results

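Met and the FGF receptors are receptor tyrosine kinases that pass their signal through shared routes, chiefly the RAS, RAF, MEK and ERK cascade and the PI3K and AKT pathway. ERK activity switches on immediate transcription factors, cyclin D1 and a set of inhibitors that feed back on the cascade itself, and AKT activity holds the FoxO transcription factors out of the nucleus. Because both receptors can feed the same cascade, the combined effect of blocking them need not equal the effects of blocking each alone added together. The departure of the combination from that sum was therefore measured gene by gene in mouse mammary tumour cells.

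The cells were tumourspheres, free-floating colonies grown in serum-free medium with EGF and basic FGF, of the lines A1005, A1129 and A1471. Each line came from an independent spindle-cell tumour of a mouse of the genotype MMTV-Metmt;Trp53fl/+;Cre. In this model a mutant Met transgene under the MMTV promoter is combined with loss of Trp53 in the mammary gland. The study also states that the endogenous Met locus is amplified in the model. The DMSO controls carry the same alleles as the treated cells. For 24 h each line received the solvent DMSO, Crizotinib (an inhibitor of Met), PD173074 (an inhibitor of the FGF receptors) or both, and total RNA of the resulting 12 libraries was sequenced (n = 3 per treatment, with 1 library per line and treatment). The total counts were between 13031492 and 17750476 per library.

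All 12 libraries entered the contrast, and 13836 of the 55573 genes in the count table had enough reads to be tested. For each gene the log2 changes of Crizotinib and PD173074 against DMSO were added, and the departure was the log2 change of the combination against DMSO minus that sum. A departure of 0 means that the fold changes of both inhibitors multiply. Departures were fitted with edgeR, a count model, with the cell line as a term, and called at a Benjamini-Hochberg adjusted p of 0.05. The 3 lines, each from 1 tumour, are the replicates. The p-values rest on the spread left over all 12 libraries once treatment and line are fitted, drawn towards that of other genes. They do not measure the spread of the departure over the 3 lines alone, so a called gene can rest on 1 line. In bulk RNA fewer cells of a kind and less RNA per cell cannot be told apart. Below, levels are in CPM, counts scaled to the size of the library, and are given for A1005, A1129 and A1471 in that order.

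The lines had the marker profile of mesenchymal cells. The summed level of the mesenchymal markers was 3876 to 5368 CPM in the DMSO libraries, 8 of 10 of them being tested, against 19.3 to 78.3 CPM for the mammary epithelial markers, of which 5 of 12 were tested. The epithelial adhesion genes Cdh1 and Epcam were not among those tested, with 0 to 29 reads per library. The mesenchymal markers Cdh2 and Snai2 were not tested either, with 0 to 6 and 0 to 32 reads per library. Immune markers summed to 4.62 to 30.9 CPM with DMSO and 8.64 to 42.9 CPM with both inhibitors, with 3 of the 10 at 0 in all libraries, and none of the 8 endothelial markers was tested.

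The combination departed from the sum at 2241 of the 13836 genes (16.2%), being lower than the sum at 1486 (10.7%) and higher at 755 (5.46%). An unadjusted p under 0.05 was reached by 4521 genes. Across all tested genes the median departure was 0.03, and 7244 departures were above 0. Of the 2241 genes, 2223 (99.2%) had a departure of the same sign in each of the 3 lines, against 7967 (57.6%) of all tested genes. The call was made on these same 3 lines and favours departures they share, so this share is a description and no support. At 2235 of the 2241 genes the departure had the same sign as the combination effect. The same held at 11832 of all 13836 tested genes. These include genes whose sum pointed against the combination, 419 of those called and 3231 of all tested. The rest of them moved beyond the sum. At 6 of the called genes the departure had the opposite sign. The counts of the gene lists below are to be read against the shares of 16.2%, 10.7% and 5.46%.

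The count rested on comparing treatments within lines. With the line left out of the model 127 genes were called (0.918%), 126 lower (0.911%) and 1 higher (0.00723%), and all 127 were among the 2241. With A1005, A1129 or A1471 left out, 1679, 496 and 423 genes were called. The direction was also read in the line that the fit had not seen: of the genes called in the other 2 lines, 95.5% had the same sign in A1005, 98.6% in A1129 and 98.8% in A1471, where 74.3%, 74.8% and 74.7% of all tested genes did.

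The single inhibitors had small median effects on the genes lower than the sum, and PD173074 a larger one on those higher. Among the 1486 genes lower than the sum, the median log2 change was -0.01 with Crizotinib, -0.14 with PD173074 and -1.13 with both, and the median departures in the 3 lines were -0.78, -1.05 and -1.03. Among the 755 genes higher than the sum, the medians were -0.03 with Crizotinib, 0.28 with PD173074 and 1.08 with both, and the median departure was 0.68, 0.98 and 0.84 in the 3 lines. At 1834 of the 2241 genes (81.8%, and 80.4% of all tested genes) each single inhibitor moved the gene by less than 0.5 on the log2 scale. That share was 87.6% of the lower and 70.6% of the higher genes, of which 217 moved by at least 0.5 with PD173074. At 904 of the 1834 genes the combination moved the gene by at least 1. At 419 genes the sum pointed against the combination. On the linear CPM scale, where a sum is an addition of levels, 2239 of the 2241 departures had the same sign. So did 13331 of all 13836 tested genes, so this agreement was not particular to the called genes. The departing genes were more highly expressed than the rest, with a median average log2 CPM of 5.76 against 4.72 over all tested genes.

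**Figure D1:**
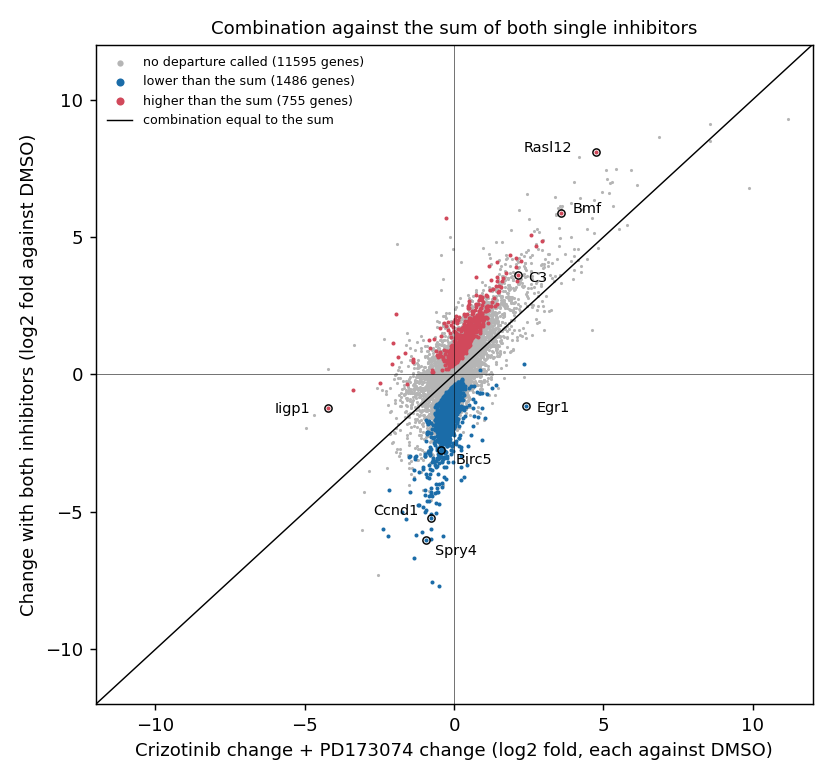
Each point is 1 of the 13836 tested genes, with the sum of the log2 changes of both single inhibitors on the horizontal axis and the log2 change of the combination on the vertical axis, and coloured points are the 1486 genes called lower and the 755 called higher than the sum. The called genes below the diagonal spread far down over sums near 0, with a median combination effect of -1.13, and the called genes above the diagonal lie closer to it, with a median of 1.08.

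Most genes that the combination lowered strongly departed, and most that it raised strongly did not, a difference that was not tested. Of the 389 genes lowered by at least 2 on the log2 scale, 289 departed (74.3%), with a median departure of -2.04 beside a median sum of -0.52. Of the 597 genes raised by at least 2, 103 departed (17.3%), with a median departure of 1.34 beside a median sum of 1.43. The median standard error was 0.453 in the lowered and 0.696 in the raised genes, so a raised gene needed the larger departure to be called. At a combination effect of at least 1 the shares were 60.7% of 1431 lowered and 21.6% of 1960 raised genes.

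Genes that report ERK activity held the deepest departures. Of 16 feedback inhibitors of the ERK pathway, all tested, 10 were lower than the sum and none higher (8, 7 or 2 of them kept the call with A1005, A1129 or A1471 left out, and 1 without the line in the model), and the median departure was -1.5 against -0.33 for the sum and -1.79 for the combination. Dusp6, the phosphatase that removes the activating phosphates of ERK (ENSMUSG00000019960, chr10:99263231-99267489, plus strand, GRCm38), stood at 225, 204 and 118 CPM with DMSO, 270.5, 261 and 143 CPM with Crizotinib and 104, 104 and 51.7 CPM with PD173074. The combination left 9.51, 4.01 and 3.17 CPM where 125, 133 and 62.8 CPM were expected from the sum. Every library with both inhibitors lay below every other library, and the fitted departure was -4.28 ± 0.27 (SE, adjusted p = 3.93e-05). Spry4, a Sprouty protein that blocks the signal between receptor and RAF, went from 9.91, 24.6 and 18.6 CPM with DMSO to 3.38, 13.9 and 9.54 CPM with PD173074 and 0.111, 0.627 and 0.0754 CPM with both, which were 2, 10 and 1 reads. Its departure of -5.10 ± 0.40 (SE, adjusted p = 6.54e-05) was the lowest of the genes whose log2 CPM averaged 3 or more, and its size is set by those few reads. Spry2 departed by -1.79 (adjusted p = 0.00168) and Spred2, another RAF inhibitor, by -2.39 (adjusted p = 0.00243). The departures of the 16 members ran from -5.10 to 1.31, and 15 were negative.

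Transcription factors that ERK signalling induces went the same way. Of 20 tested, 9 were lower than the sum and none higher (8, 6 or 6 of them kept the call with A1005, A1129 or A1471 left out, and 3 without the line in the model), and the median departure was -1.63 against -0.16 for the sum and -1.05 for the combination. The ETS factors of the PEA3 group, which act in the nucleus on ERK phosphorylation, were among the lowest. Etv5 stood at 78, 64.8 and 63.3 CPM with DMSO, 82.1, 77.4 and 65.9 CPM with Crizotinib and 32.5, 36.6 and 27.7 CPM with PD173074. The level with both was 3.17, 1.82 and 1.43 CPM, below every other library, for a departure of -4.03 ± 0.23 (SE, adjusted p = 3.03e-05). Etv4 departed by -3.77 (adjusted p = 1.10e-04), Etv1 by -2.58 (adjusted p = 9.03e-05) and Hmga2, a chromatin protein of stem and tumour cells, by -2.41 (adjusted p = 3.03e-05).

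The early growth response gene Egr1 (ENSMUSG00000038418) lay above DMSO with PD173074 and below it with both inhibitors. It stood at 25.6, 30.4 and 7.39 CPM with DMSO and 25.8, 37.8 and 12.1 CPM with Crizotinib. With PD173074 it was at 59.9, 59.8 and 105 CPM, above the DMSO library of each line. With both inhibitors it was at 18, 5.45 and 4.38 CPM, below the DMSO library of each line, where 60.5, 74.4 and 171 CPM were expected. The departure was -3.56 ± 0.82 (SE, adjusted p = 0.019) and by line -1.74, -3.73 and -5.24. Its relative Egr3 was at 9.06, 15.9 and 9.39 CPM with DMSO and 1.67, 0.188 and 0.226 CPM with both, for a departure of -4.09 ± 0.80 (SE, adjusted p = 0.00939).

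Some ligands of the EGF receptor departed as well. Of 11 tested ligands and receptors of the EGF family, 4 were lower than the sum and none higher (3, 1 or 1 of them kept the call with A1005, A1129 or A1471 left out, and 0 without the line in the model), and the median departure was -1.10 against -0.05 for the sum and -0.39 for the combination. The family was split, with 5 of the 11 departures positive. On log2 CPM its median departure was -0.57 in A1129 and -0.71 in A1471. The median in A1005 was 2.7e-15, a value that a gene without reads in that line takes. It therefore does not show that the expressed members lacked a departure in A1005. Areg, which encodes amphiregulin, stood at 35.3, 13.4 and 11.1 CPM with DMSO, 39.2, 7.4 and 10.6 CPM with Crizotinib, 16.4, 8.01 and 6.41 CPM with PD173074 and 0.5, 0.376 and 0.226 CPM with both, for a departure of -4.64 ± 0.44 (SE, adjusted p = 1.37e-04). Hbegf, the heparin-binding ligand, departed by -1.66 (adjusted p = 0.0188) and Btc, betacellulin, by -1.92 (adjusted p = 0.0287). Ereg, epiregulin, departed by -1.96 (adjusted p = 0.0201), but was read only in A1005, where it went from 57.1 CPM with DMSO to 8.12 CPM with both, and had at most 1 read in the libraries of the other lines.

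**Figure D2:**
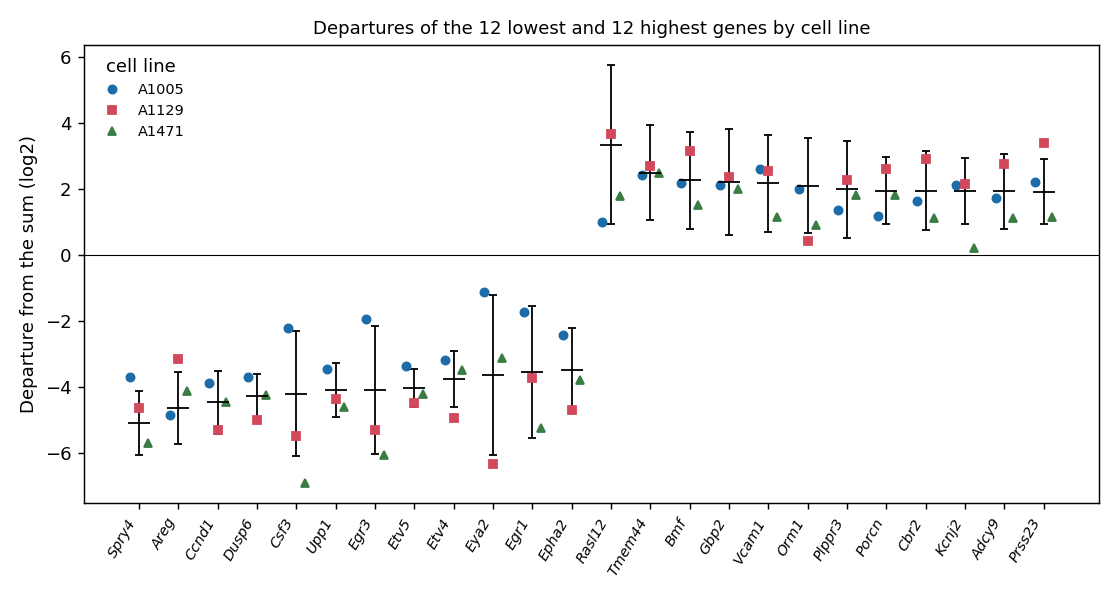
Points give the departure in each line (A1005, A1129 and A1471) on the log2 scale, and black bars the fitted departure with its 95% interval, for the 12 lowest and the 12 highest named genes among those called whose log2 CPM averaged 3 or more. The fitted departures run from -5.10 for Spry4 to 3.34 for Rasl12. Every line lies on the same side of 0 because the same sign in each line was a condition for naming these genes. The lines of Eya2, Egr3 and Csf3 lie farther apart than those of Dusp6 or Upp1.

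The tested receptors themselves were not among the departing genes. Of 14 tested genes of Met and FGF receptor signalling, 1 was higher than the sum and none lower, and the median departure was -0.05. Met was at 5091, 4978 and 2613 CPM with DMSO, 4825, 4434 and 2126 CPM with Crizotinib and 8327, 6881 and 4578 CPM with PD173074. With both it was at 5979.9, 6920.5 and 2666 CPM, against 7892, 6129.9 and 3725 CPM expected, for a departure of -0.24 ± 0.20 (SE, adjusted p = 0.45) with a 95% interval of -0.74 to 0.26. Reads of the transgene and of the mouse gene cannot be told apart here. Fgfr1 was at 319, 256 and 286 CPM with DMSO and 217, 302 and 282 CPM with both, for a departure of -0.03 ± 0.19 (SE, adjusted p = 0.938) and an interval of -0.48 to 0.43. Fgfr2 (-0.35, adjusted p = 0.768) and Fgfr3 (0.18, adjusted p = 0.961) were low, at no more than 2.8 CPM in any library. Fgfr4 had too few reads to be tested. The adaptor Frs2 departed by 0.09 ± 0.15 (SE, adjusted p = 0.721), and the ligands Hgf and Fgf2 by -1.05 (adjusted p = 0.467) and -1.20 (adjusted p = 0.301), none of them called. The called member was Gab1, the docking protein that couples Met to PI3K, with a departure of 0.85 ± 0.25 (SE, adjusted p = 0.0417), and it kept the call with A1005 left out but not with A1129 or A1471 left out or without the line in the model.

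Other receptor tyrosine kinases went both ways, with 3 of 13 tested called beside 16.2% of all tested genes. Of 13 tested, Ddr1, a collagen receptor, was higher than the sum at 1.31 ± 0.32 (SE, adjusted p = 0.0249), and Epha2 and Tyro3 were lower. Epha2, an ephrin receptor, stood at 184, 175 and 184 CPM with DMSO, 229.9, 154 and 184 CPM with Crizotinib, 80.4, 127 and 93 CPM with PD173074 and 18.6, 4.2 and 6.64 CPM with both, below every other library, for a departure of -3.50 ± 0.53 (SE, adjusted p = 0.00239). Tyro3 departed by -0.58 ± 0.14 (SE, adjusted p = 0.025). Among 10 tested genes of the insulin and IGF pathway, Igfbp4, which binds IGF outside the cell, was lower at -1.16 ± 0.28 (SE, adjusted p = 0.0216) and none was higher. Epha2 kept its call with A1005 or A1129 left out and without the line in the model, Ddr1 with A1005 left out, and none of these receptor kinases with A1471 left out. Igfbp4 was not called with any 1 line left out, nor without the line in the model.

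Cyclin D1 joined the ERK genes among the deepest departures. Ccnd1, the partner of CDK4 and CDK6 in early cell cycle entry (ENSMUSG00000070348, chr7:144929931-144939925, minus strand, GRCm38, with exons that overlap those of LTO1), stood at 709, 1217 and 1060.1 CPM with DMSO, 810.5, 1273 and 1155 CPM with Crizotinib and 440.1, 658 and 517 CPM with PD173074. With both inhibitors 33.9, 17.1 and 25.5 CPM were left where 503, 688 and 563 CPM were expected. All 3 libraries lay far below the others, and the departure was -4.47 ± 0.39 (SE, adjusted p = 9.03e-05). Of 16 tested D cyclins, CDKs and CDK inhibitors, 8 were lower and 2 higher than the sum, with a median departure of -0.34. Of the 8 lower, 6, 2 or 3 kept the call with A1005, A1129 or A1471 left out, and 1 without the line in the model. Of the 2 higher, Cdkn2b kept the call with each line left out, and neither did without the line in the model. The 2 higher genes were CDK inhibitors: Cdkn2b, which blocks CDK4 and CDK6, stood at 58, 30.7 and 69.6 CPM with DMSO, 44.5, 21.5 and 59.9 CPM with PD173074 and 122, 74.3 and 127 CPM with both, for a departure of 1.14 ± 0.19 (SE, adjusted p = 0.00392), and Cdkn2a departed by 0.56 ± 0.15 (SE, adjusted p = 0.0303). The pocket protein gene Rbl1 (-1.58, adjusted p = 1.75e-04) and the cyclin E gene Ccne2 (-2.49, adjusted p = 0.00501) were lower.

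Genes of DNA replication and mitosis departed nearly as whole lists. Of 17 E2F and DREAM regulators, which time the cell cycle genes, 12 were lower than the sum (9, 7 or 6 of them kept the call with A1005, A1129 or A1471 left out, and 3 without the line in the model). The repressor E2f8 stood at 64.5, 145 and 145 CPM with DMSO and 6.28, 12 and 7.85 CPM with both, for a departure of -3.38 ± 0.22 (SE, adjusted p = 3.93e-05). Mybl2, which activates late cell cycle genes, stood at 88.3, 114 and 101 CPM and 11, 14 and 11.4 CPM, for -2.68 ± 0.19 (SE, adjusted p = 4.67e-05), Foxm1 departed by -1.74 (adjusted p = 3.71e-04) and Tfdp1, the E2F partner, by -1.19 (adjusted p = 4.67e-04).

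Of the 40 genes of the replication machinery, 39 were lower than the sum and all 40 departures were negative, from -3.38 to -0.39 (38, 32 or 33 of them kept the call with A1005, A1129 or A1471 left out, and 16 without the line in the model). Their median departure was -1.51 against -0.22 for the sum and -1.70 for the combination, and in the 3 lines it was -1.51, -1.5 and -1.49. Mcm3, a subunit of the replicative helicase, stood at 254, 246 and 341 CPM with DMSO, 234, 235 and 316 CPM with Crizotinib and 239, 241 and 281 CPM with PD173074. With both it stood at 69.6, 66.9 and 85 CPM, below every other library, for a departure of -1.69 ± 0.12 (SE, adjusted p = 4.11e-05). Its fellow subunit Mcm5 departed by -1.91 (adjusted p = 6.54e-05) and the clamp loader gene Rfc5 by -1.57 (adjusted p = 6.87e-05).

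All 40 genes of the mitotic spindle, kinetochore and checkpoint were lower than the sum (40, 36 or 34 of them kept the call with A1005, A1129 or A1471 left out, and 15 without the line in the model). The departures lay between -2.31 and -1.35, with a median of -1.78 against -0.34 for the sum and -2.16 for the combination. Birc5, which encodes survivin of the chromosomal passenger complex, stood at 145, 133 and 138 CPM with DMSO, 124, 119 and 129 CPM with Crizotinib and 123, 113 and 109.9 CPM with PD173074. Both inhibitors together left 22.7, 20.8 and 18.8 CPM in place of the 106, 101 and 103 CPM expected, and the departure was -2.31 ± 0.12 (SE, adjusted p = 3.03e-05). Aurkb, the kinase of that complex, departed by -2.30 (adjusted p = 3.93e-05), Cdca8, another of its subunits, by -1.79 (adjusted p = 4.75e-05) and Cdk1, the kinase that drives entry into mitosis, by -1.78 (adjusted p = 4.67e-05). The fitted departure of these genes thus spanned less than 1 log2 unit, against several units among the ERK genes.

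Since the mitotic genes moved together, their promoters were read for short motifs. The cell cycle homology region (CHR), TTTGAA, is the element through which the DREAM complex and MYBL2 with FOXM1 act on late cell cycle genes. Windows from 250 bases before to 50 after the start site (RefSeq, GRCm38.p6) were matched for 33 of the 40 genes. TTTGAA stood on either strand in 23 of them (69.7%), against 17.9% of all 32851 windows, and in 18 of the 33 (54.5%) it lay between 100 bases before and 30 after the start. Among the tested genes with a window it stood anywhere in 11.6% and in that stretch in 3.91%, but a window was matched for 72.5% of the tested genes, so these shares leave out the others. The stretch from 100 before to 30 after the start is shown for the 5 mitotic genes with a matched window that were lowest in p, so that genes with and without the motif can be compared, with TTTGAA in capitals.
Birc5 (chr11:117849137-117849266, plus strand): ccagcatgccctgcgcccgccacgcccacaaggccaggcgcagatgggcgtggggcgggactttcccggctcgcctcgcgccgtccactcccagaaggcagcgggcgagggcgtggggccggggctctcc
Cdk1 (chr10:69352883-69353012, minus strand): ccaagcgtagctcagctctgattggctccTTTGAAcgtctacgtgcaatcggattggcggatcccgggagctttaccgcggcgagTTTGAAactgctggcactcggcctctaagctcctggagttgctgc
Cdca8 (chr4:124936888-124937017, minus strand): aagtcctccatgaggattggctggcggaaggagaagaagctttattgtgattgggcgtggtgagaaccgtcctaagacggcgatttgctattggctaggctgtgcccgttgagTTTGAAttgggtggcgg
Plk4 (chr3:40799851-40799980, plus strand): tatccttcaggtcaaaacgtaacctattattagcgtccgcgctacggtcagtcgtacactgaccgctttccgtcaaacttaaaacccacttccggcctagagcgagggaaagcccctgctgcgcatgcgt
Espl1 (chr15:102296193-102296322, plus strand): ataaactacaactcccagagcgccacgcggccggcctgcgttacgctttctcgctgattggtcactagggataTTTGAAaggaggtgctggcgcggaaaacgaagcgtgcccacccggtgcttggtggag
In Cdk1 the motif began 71 and 15 bases before the start, in Espl1, which encodes separase, 27 before and in Cdca8 14 after it. Birc5 and Plk4, the kinase of centriole duplication, had no TTTGAA in this stretch, although their departures were -2.31 and -2.03, beside -1.78 for Cdk1, -1.79 for Cdca8 and -2.13 for Espl1. The letters describe the windows and are no evidence of a bound factor, and the pair of motif and list was picked after 7 motifs had been counted in 38 lists.

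**Figure D3:**
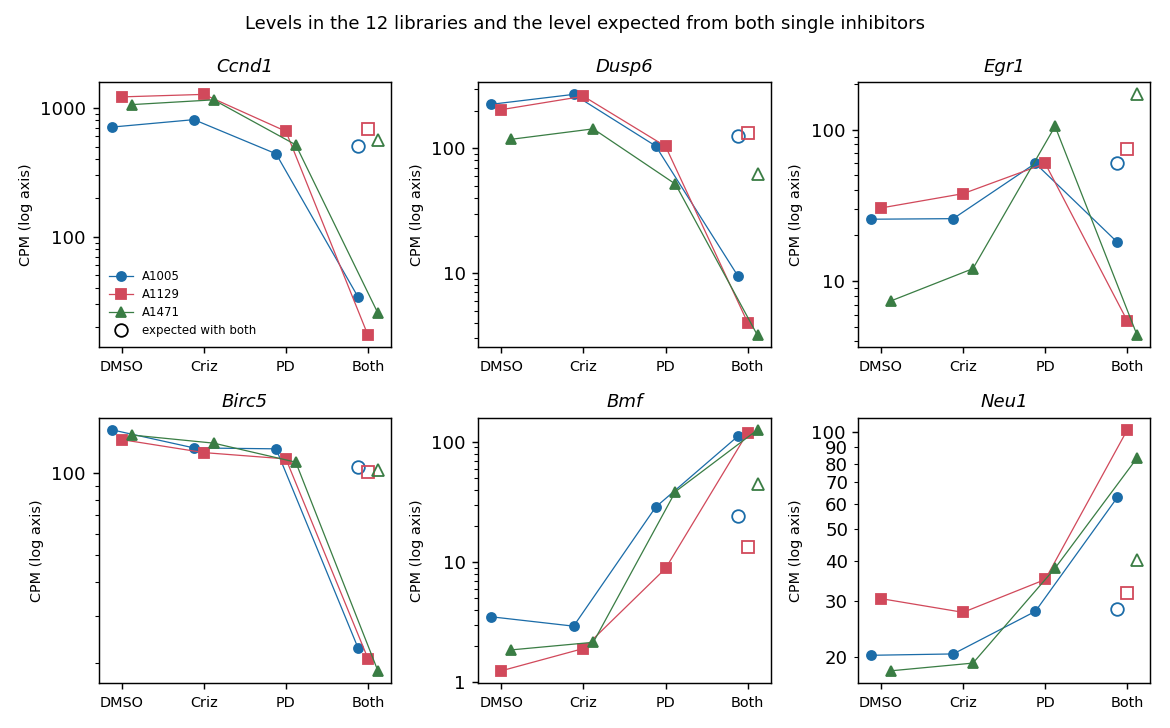
The level in CPM (log axes) of Ccnd1, Dusp6, Egr1, Birc5, Bmf and Neu1 is drawn in each of the 12 libraries, with 1 line per cell line from DMSO to both inhibitors, and open symbols give the level expected from the sum. Filled symbols with both inhibitors lie below the open ones for Ccnd1, Dusp6, Egr1 and Birc5, down to 22.7, 20.8 and 18.8 CPM for Birc5, and above them for Bmf and Neu1.

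Genes that supply growing cells departed downwards by smaller steps. All 30 ribosome biogenesis factors had a negative departure and 23 were called (21, 3 or 1 of them kept the call with A1005, A1129 or A1471 left out, and 0 without the line in the model), with a median of -0.89 against -0.13 for the sum and -0.96 for the combination. Nolc1, a nucleolar chaperone, stood at 191, 414 and 410.3 CPM with DMSO, 178, 463 and 353 CPM with PD173074 and 93.3, 154 and 152 CPM with both, for a departure of -1.17 ± 0.17 (SE, adjusted p = 0.00172). The helicase gene Ddx21 departed by -1.02 (adjusted p = 0.00354), the pseudouridine synthase gene Dkc1 by -1.21 (adjusted p = 0.00425) and nucleolin, Ncl, by -0.99 (adjusted p = 0.00561). The E-box CACGTG, which MYC binds, stood on either strand in 9 of the 26 matched windows of this list (34.6%), against 7.15% of all windows and 10.3% of those of tested genes, and was also picked after the counting. The motif was not particular to this list. It stood in 5 of 15 windows of the clock genes and 3 of 9 of the insulin and IGF genes. The median departures of those lists were 0.05 and 0.20. Myc itself stood at 403, 539 and 587 CPM with DMSO and 217, 189 and 449 CPM with both, and its departure of -0.80 ± 0.26 (SE, adjusted p = 0.0632) was not called.

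Of 24 genes of nucleotide synthesis and folate metabolism, 16 were lower and none higher than the sum (15, 8 or 6 of them kept the call with A1005, A1129 or A1471 left out, and 1 without the line in the model), with a median of -0.86 against -0.18 for the sum and -1.14 for the combination. The serine hydroxymethyltransferases Shmt1 and Shmt2, which feed the folate pool, departed by -1.59 ± 0.14 (SE, adjusted p = 9.03e-05) and -1.38 ± 0.15 (SE, adjusted p = 3.35e-04). Mthfd1l of the mitochondrial folate pathway departed by -1.35 (adjusted p = 5.21e-04) and Ppat, which opens purine synthesis, by -1.32 (adjusted p = 8.52e-04). Of 20 glycolysis genes 3 were lower than the sum and none higher, a share near the background of 16.2% called either way and 10.7% called lower (1, 1 or 0 of them kept the call with A1005, A1129 or A1471 left out, and 0 without the line in the model). They were the glucose transporter Slc2a1 at -1.02 ± 0.17 (SE, adjusted p = 0.00352), Ldha at -0.66 (adjusted p = 0.0249) and Pgam1 at -0.52 (adjusted p = 0.0417). Of the 21 genes of cholesterol synthesis, edgeR called 0 (0 had an unadjusted p under 0.05, and DESeq2 with the line called 0), and their departures ran from -0.76 to 0.56 with a median of -0.08. Of 21 genes of the stress and unfolded protein responses, Asns, asparagine synthetase, was called, at -0.73 ± 0.16 (SE, adjusted p = 0.0163), and it was not called with A1471 left out or without the line in the model.

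Genes of FoxO factors and lysosomes lay on the higher side. Of 20 tested FoxO targets 6 were higher than the sum and none lower (3, 0 or 0 of them kept the call with A1005, A1129 or A1471 left out, and 0 without the line in the model), and the median departure was 0.77 against 0.41 for the sum and 0.86 for the combination. Bmf, a BH3-only protein that starts apoptosis (ENSMUSG00000040093, chr2:118528757-118549687, minus strand, GRCm38), stood at 3.51, 1.25 and 1.86 CPM with DMSO, 2.94, 1.92 and 2.16 CPM with Crizotinib and 28.7, 8.87 and 38.6 CPM with PD173074. With both inhibitors it reached 111, 119.5 and 126 CPM where 24.3, 13.3 and 44.4 CPM were expected, for a departure of 2.27 ± 0.60 (SE, adjusted p = 0.0319). Bmf lost the call with any 1 line left out (adjusted p = 0.112, 0.0766 or 0.0990 by edgeR without A1005, A1129 or A1471) and without the line in the model (adjusted p = 0.320). The levels were thus nearly equal in the 3 lines with both inhibitors, whereas those with PD173074 alone were not. Pik3ip1, an inhibitor of PI3K, departed by 1.92 (adjusted p = 0.0321), the sestrin gene Sesn3 by 0.97 (adjusted p = 0.0339) and Cat, catalase, by 0.76 (adjusted p = 0.0301).

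In the BCL2 family, 2 of 13 tested genes were higher and none lower, a share near the 16.2% of all tested genes called either way. Neither kept the call with any 1 line left out or without the line in the model. They were Bmf and Bad, whose departure of 0.66 ± 0.15 (SE, adjusted p = 0.0186) came with levels of 19.3, 19.7 and 16.2 CPM under DMSO and 34.7, 35.5 and 29.9 CPM under both. Bcl2l11, which encodes the BH3-only protein BIM, missed the threshold at 0.73 ± 0.24 (SE, adjusted p = 0.0605). Of 20 p53 targets, 2 were lower and none higher (2, 1 or 1 of them kept the call with A1005, A1129 or A1471 left out, and 1 without the line in the model), namely Gtse1, a microtubule protein of dividing cells, at -1.96 ± 0.20 (SE, adjusted p = 1.95e-04) and the nuclease gene Aen at -1.03 ± 0.25 (SE, adjusted p = 0.023). The 2 calls among 20 p53 targets lie near the 10.7% of all tested genes called lower. Cdkn1a, the CDK inhibitor induced by p53, had a departure of 0.29 ± 0.49 (SE, adjusted p = 0.717) and was not called.

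Of 28 tested lysosome and autophagy genes, 14 were higher than the sum and none lower (9, 1 or 2 of them kept the call with A1005, A1129 or A1471 left out, and 0 without the line in the model), and the median departure was 0.71 against 0.29 for the sum and 1.06 for the combination. Neu1, the lysosomal sialidase, stood at 20.3, 30.5 and 18.2 CPM with DMSO, 20.5, 27.6 and 19.2 CPM with Crizotinib and 27.8, 34.9 and 37.9 CPM with PD173074. It reached 62.9, 102 and 83.4 CPM with both, above every other library, against 28.2, 31.8 and 40.1 CPM expected, for a departure of 1.30 ± 0.22 (SE, adjusted p = 0.00437). Sqstm1, the autophagy receptor p62, departed by 1.0 (adjusted p = 0.00388) and Ctsa, which protects Neu1 in the lysosome, by 0.99 (adjusted p = 0.00668). In lipid storage, Pnpla2, the triglyceride lipase of lipid droplets, departed by 1.23 ± 0.14 (SE, adjusted p = 4.00e-04) and Plin3, a droplet coat protein, by 0.88 ± 0.27 (SE, adjusted p = 0.0489), whereas the fatty acid carrier Fabp4 was lower at -1.54 ± 0.34 (SE, adjusted p = 0.0168). These were the calls among 15 tested lipid genes, beside 16.2% of all tested genes called either way. Of the 2 higher, 2, 1 or 1 kept the call with A1005, A1129 or A1471 left out, and 0 without the line in the model.

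Interferon response genes showed opposite single effects. Their median log2 change was -0.67 with Crizotinib, 1.04 with PD173074 and 1.69 with both, so that the sum was 0.45 and the median departure 1.40. All 28 departures were above 0 and 7 were called (1, 1 or 1 of them kept the call with A1005, A1129 or A1471 left out, and 0 without the line in the model). Gbp2, a guanylate-binding protein, stood at 30.6, 16.6 and 14.2 CPM with DMSO, 15.1, 6.47 and 6.97 CPM with Crizotinib and 137, 39 and 213 CPM with PD173074. With both it was at 296, 80 and 428 CPM, against 68.2, 15.5 and 106 CPM expected. In every line Gbp2 was thus lower with Crizotinib than with DMSO and higher with both than with PD173074, for a departure of 2.22 ± 0.66 (SE, adjusted p = 0.0447). Stat2, which carries the interferon signal into the nucleus, departed by 1.40 (adjusted p = 0.0264), Ddx58, the RNA sensor RIG-I, by 0.86 (adjusted p = 0.0292), Irgm1, a GTPase, by 1.15 (adjusted p = 0.0301) and the transcription factor Irf1 by 0.70 (adjusted p = 0.0401). The immune markers summed to 5.03 to 32.6 CPM with Crizotinib, 4.56 to 34.3 CPM with PD173074 and 8.64 to 42.9 CPM with both, with Ptprc, the pan-leukocyte marker, read mainly in A1005, and their part in the result was not tested.

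Antigen presentation by MHC class I went the same way at smaller size. All 14 departures were above 0 and 5 were called (0, 2 or 0 of them kept the call with A1005, A1129 or A1471 left out, and 0 without the line in the model), with a median of 0.85 against 0.45 for the sum and 1.18 for the combination. B2m, the light chain of the complex, stood at 498, 241 and 234 CPM with DMSO, 662, 241 and 364 CPM with PD173074 and 1240.1, 421 and 533 CPM with both, for 0.83 ± 0.19 (SE, adjusted p = 0.0181). The heavy chain genes H2-K1, H2-D1 and H2-Q4 departed by 0.75, 0.74 and 0.89 (adjusted p = 0.00818, 0.033 and 0.0339), with the limit that reads of such near-identical genes can be split between them. In the complement list, C3, the central component, was the called gene of 9, at 471, 112 and 91 CPM with DMSO, 1620.3, 422 and 734 CPM with PD173074 and 3428, 1761 and 1511 CPM with both, a departure of 1.5 ± 0.39 (SE, adjusted p = 0.0309). It was not called with any 1 line left out, nor without the line in the model, and 1 call of 9 stands beside 16.2% of all tested genes.

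Secreted signals that departed were mostly lower than the sum. Of 21 chemokines and cytokines, 6 were lower and 1 higher. Of the 6 lower, 4, 1 or 3 kept the call with A1005, A1129 or A1471 left out, and 0 without the line in the model. Csf3, granulocyte colony-stimulating factor, stood at 299, 176 and 81.7 CPM with DMSO, 276, 163 and 101 CPM with Crizotinib, 117, 124 and 79.3 CPM with PD173074 and 23.1, 2.44 and 0.679 CPM with both. The departure was -4.20 ± 0.78 (SE, adjusted p = 0.00721), and at -2.22, -5.48 and -6.91 it was smallest in A1005. Il33 departed by -2.51 (adjusted p = 0.00912) and Il24, a cytokine of the IL-10 family, by -3.65 (adjusted p = 0.015). The higher gene was Cxcl12, the ligand of Cxcr4, at 2.78 ± 0.60 (SE, adjusted p = 0.0146), which was expressed only in A1129 (4.01 CPM with DMSO and 68.7 CPM with both, and at most 0.222 CPM in the other lines), so its departure rests on that line.

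Of the genes of cell identity, 1 of 12 in the EMT list, 2 of 12 in the epithelial and 4 of 12 in the stemness list departed, to be read against 16.2% of all tested genes. Of 12 tested EMT factors and mesenchymal genes, Twist1, a factor that drives the mesenchymal state, was called, at 125, 115 and 100.3 CPM with DMSO and 61.1, 53.9 and 44.5 CPM with both, a departure of -0.89 ± 0.15 (SE, adjusted p = 0.00422). With A1129 or A1471 left out, or without the line in the model, 0 genes of that list passed, and the epithelial list then also had 0. In the epithelial list of 12, the keratin gene Krt7 was higher at 1.86 ± 0.40 (SE, adjusted p = 0.0155) and Grhl2, an epithelial transcription factor, lower at -1.48 ± 0.40 (SE, adjusted p = 0.0332), both at under 11 CPM in every library. Of 12 stemness genes 4 were lower (3, 2 or 2 of them kept the call with A1005, A1129 or A1471 left out, and 1 without the line in the model): Hmga2 and Mybl2, given above, the hyaluronan receptor Cd44 at -1.67 ± 0.37 (SE, adjusted p = 0.0167) and the integrin Itga6 at -0.87 ± 0.25 (SE, adjusted p = 0.0392). Gdpd2, a glycerophosphodiesterase, was higher, at 8.04, 9.27 and 3.8 CPM with DMSO, 69.5, 59 and 59 CPM with PD173074 and 236, 193 and 151 CPM with both, for 1.90 ± 0.51 (SE, adjusted p = 0.0324). Gdpd2 kept the call with A1129 left out, but not with A1005 or A1471 left out or without the line in the model. Hes1, a Notch target, and Ogn, a matrix proteoglycan, were not called (-0.98, adjusted p = 0.382, and 1.54, adjusted p = 0.382).

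For collagens and proteoglycans the median sum was larger than the median departure. The 21 tested collagen chains had a median combination effect of 1.68, a median sum of 0.94 and a median departure of 0.55, and 20 departures were above 0. Called higher were 2, beside 5.46% of all tested genes (1, 0 or 0 of them kept the call with A1005, A1129 or A1471 left out, and 0 without the line in the model). These were the basement membrane chains Col4a6, which had at most 0.5 CPM in A1005, at 1.21 ± 0.25 (SE, adjusted p = 0.0125) and Col4a5 at 1.03 ± 0.29 (SE, adjusted p = 0.0392). The 15 tested proteoglycans and matricellular genes had medians of 1.76, 1.23 and 0.60. The 2 called genes were lower, beside 10.7% of all tested genes (2, 1 or 2 of them kept the call with A1005, A1129 or A1471 left out, and 0 without the line in the model). Spp1, osteopontin, stood at 7836, 2394 and 2705 CPM with DMSO, 4169, 1801 and 1550.2 CPM with PD173074 and 906, 479 and 240.4 CPM with both, for -2.45 ± 0.27 (SE, adjusted p = 3.24e-04), and Ccn3 departed by -1.84 ± 0.44 (SE, adjusted p = 0.0218).

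Among 19 matrix proteases and inhibitors 4 were lower and 1 higher than the sum. Of the 4 lower, 3, 1 or 0 kept the call with A1005, A1129 or A1471 left out, and 0 without the line in the model. Timp1, an inhibitor of metalloproteinases, departed by -1.25 ± 0.19 (SE, adjusted p = 0.00278), Mmp3, stromelysin, by -2.43 (adjusted p = 0.0166) and Plaur, the urokinase receptor, by -2.45 (adjusted p = 0.0188). Mmp14, a membrane metalloproteinase, was the higher gene at 1.32 ± 0.33 (SE, adjusted p = 0.0259). Of 15 integrins, Itga5 (-0.79, adjusted p = 0.0107) and Itga6 were lower and Itgb5 (0.97, adjusted p = 0.0495) was higher, 3 calls beside the background of 16.2%. Itga5 kept the call with A1005 left out, and none of the 3 did with A1129 or A1471 left out or without the line in the model.

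The calls in the remaining signalling lists are to be read against the 16.2% of all tested genes. Among 12 Wnt genes the ligand Wnt7b (-2.43, adjusted p = 0.0389) and the transcription factor Tcf7 (-0.98, adjusted p = 0.047) were lower. Of 20 TGF beta and BMP genes, the BMP target Id1 (-1.43, adjusted p = 0.0112) and Ltbp1, which tethers latent TGF beta to the matrix (-0.75, adjusted p = 0.0245), were lower. In the Notch pathway 3 of 12 genes were lower, the ligands Dll4 (-3.49, adjusted p = 0.0034) and Jag2 (-1.09, adjusted p = 0.0396) and the feedback regulator Nrarp (-2.01, adjusted p = 0.031). Dll4 had at most 0.156 CPM in A1005. Of 17 clock genes Tef, an output transcription factor, was higher at 0.84 ± 0.23 (SE, adjusted p = 0.0369). Of these calls, 0 Wnt, 1 TGF beta, 0 Notch and 0 clock genes kept theirs with A1129 left out, 0, 1, 1 and 0 with A1471 left out, and none without the line in the model.

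**Figure D4:**
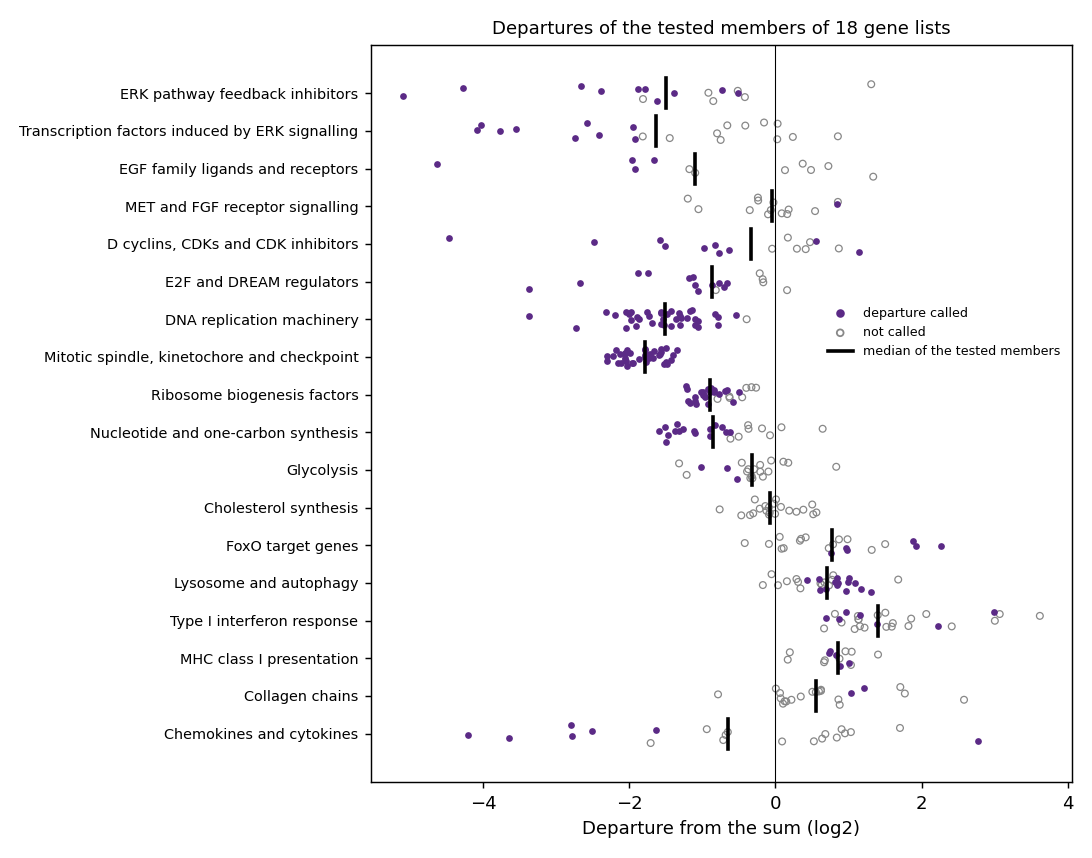
Each row is 1 of 18 gene lists and each point the departure (log2) of a tested member, filled where it was called, with a black bar at the median of the list. The replication and mitosis members all lie left of 0 with medians of -1.51 and -1.78, the mitosis members from -2.31 to -1.35 and the replication members more widely, the ERK lists reach from -5.10 to above 0, and the interferon members all lie right of 0 with a median of 1.40.

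Outside the lists, the lowest departures at an average log2 CPM over 3 included Upp1, uridine phosphorylase, at -4.09 ± 0.33 (SE, adjusted p = 7.28e-05) and Eya2, a transcriptional coactivator and phosphatase, at -3.65 ± 0.99 (SE, adjusted p = 0.0343). Upp1 stood at 93.2, 39.3 and 19.3 CPM with DMSO, 44.6, 27.2 and 13.5 CPM with PD173074 and 4.67, 1 and 0.528 CPM with both. The highest was Rasl12, a RAS-like GTPase, at 3.34 ± 0.99 (SE, adjusted p = 0.0441), which was carried by A1129 (0.263 CPM with DMSO and 86.6 CPM with both) and reached 0.5 and 0.83 CPM in the other lines. Its exons overlap those of Slc51b. Tmem44, a membrane protein, rose in all 3 lines by similar departures (2.42, 2.69 and 2.49), from 0.39, 0.987 and 0.76 CPM with DMSO to 1.99, 3.29 and 9.54 CPM with PD173074 and 11.7, 22.1 and 42.9 CPM with both, for 2.50 ± 0.59 (SE, adjusted p = 0.021). Vcam1, an adhesion molecule for leukocytes, departed by 2.18 ± 0.60 (SE, adjusted p = 0.0353), from 14.4, 7.04 and 15.7 CPM with DMSO to 50.3, 6.94 and 55.9 CPM with PD173074 and 254, 23 and 92.2 CPM with both. Vcam1 lost the call with any 1 line left out. Upp1 kept it with each line left out. With a line left out, Eya2 kept it only without A1005 and Tmem44 only without A1471. Rasl12 kept it without A1005 and lost it without A1471. None of these genes kept the call without the line in the model.

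The other high departures were those of Orm1, an acute-phase protein (2.11), Plppr3 (2.01), Porcn, which adds the lipid to Wnt proteins (1.96), the carbonyl reductase Cbr2 (1.96), the potassium channel Kcnj2 (1.95), the adenylyl cyclase Adcy9 (1.94) and the serine protease Prss23 (1.93), with adjusted p-values of 0.0375, 0.0468, 0.0145, 0.0265, 0.0141, 0.0219 and 0.0134. Prss23 stood at 1.01, 2.04 and 13.1 CPM with DMSO, 0.478, 0.924 and 15.4 CPM with Crizotinib, 7.74, 11.7 and 118 CPM with PD173074 and 19.3, 60.8 and 307 CPM with both. It was higher with both inhibitors than with PD173074 in each line. Orm1 rests on A1005, where it reached 60.8 CPM, and its departure was -1.68 with that line left out. Orm1, Plppr3 and Adcy9 lost the call with any 1 line left out. Porcn and Cbr2 kept it only without A1005, and Kcnj2 only without A1471. Prss23 kept it without A1005 or A1471, but not without A1129. None of these genes kept the call without the line in the model.

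The 6 genes that changed by less than the sum were few and mostly scarce. Zc3h11a, an RNA-binding protein, was the one whose log2 CPM averaged 3 or more. It stood at 14.8, 12.8 and 13.3 CPM with DMSO, 19.9, 14.7 and 23.1 CPM with Crizotinib, 18, 15.5 and 19.9 CPM with PD173074 and 15.4, 15.6 and 14.6 CPM with both, for a departure of -0.70 ± 0.21 (SE, adjusted p = 0.0462), and its exons overlap those of Zbed6. The other 5, named here after their values were seen, were Iigp1, Rps23-ps2, Gm12359, Gm13216 and Gm12356. Iigp1, an interferon-induced GTPase, stood at 9.21, 6.84 and 1.59 CPM with DMSO, 0.205, 0.132 and 0.0719 CPM with Crizotinib, 23, 9.02 and 6.91 CPM with PD173074 and 5, 0.815 and 1.96 CPM with both. With Crizotinib alone it was near 0 (log2 change -5.34) and with both it was lower than DMSO by less (-1.21), for a departure of 3.00 ± 0.86 (SE, adjusted p = 0.0403). The others, departing by 1.21, 2.17, 2.84 and -1.96, stood below 4 CPM in every library. Without the line in the model, or with A1129 or A1471 left out, 0 genes changed by less than the sum.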

How the data were processed

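Total RNA of 12 tumoursphere libraries was sequenced by the authors on a NextSeq500, and the submitters' processing notes name bcl2fastq, STAR, HTSeq and the mouse genome mm10. The authors deposited raw counts per gene, with no normalization. The strand setting of the counting is not given in the sources used here, so genes with overlapping exons cannot be told apart (of the named genes, among others Ccnd1, Hmga2, E2f8, Foxm1, Rfc5, Shmt1, Ppat, Sqstm1, Ctsa, Spp1, Wnt7b, Dll4 and Rasl12). Of 66 library pairs 0 were identical.

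Counts were fitted with edgeR 4.0.16 in R 4.3.3 (TMM scaling, filterByExpr with a minimum of 10 counts, quasi-likelihood test, 6 residual degrees of freedom), with treatment and cell line as terms. The contrast was the combination minus Crizotinib minus PD173074 plus DMSO, with p-values adjusted over the 13836 genes, which held at least 99.8% of each library's counts. The study states an unpaired analysis, which was run as an alternative. Line was kept because the contrast is defined within lines and the replicate number in the labels is the line. Libraries of the same line deviated together (mean r = 0.871, 0.766 to 0.962, over 18 pairs). Departures by line and expected levels came from log2 CPM with a prior count of 2. Standard errors are the fitted log2 change divided by the square root of F, and intervals use the t distribution with 6 degrees of freedom. The fit was tested on simulated data.

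The members and gene lists were chosen with earlier results of these data known, so a list's count is a description. Named were the 12 highest and 12 lowest called departures (log2 CPM averaging at least 3, the same sign in each line, protein coding), genes changing less than the sum under the same conditions, receptors and genes the study names for this experiment, and per list up to 4 members of smallest p and up to 2 called against the others. Myc, Bcl2l11, Cdkn1a and Ptprc fall outside this rule and were chosen after their values were seen. Promoters are RefSeq sequences of GRCm38.p6. The 7 motifs counted were ETS (CCGGAAGT), AP-1 (TGACTCA), CRE (TGACGTCA), CHR (TTTGAA), E2F (TTTCCCGC or TTTGGCGC), FoxO (GTAAACA) and E-box (CACGTG), on both strands. The counts for the ERK feedback (75% of members with a window), E2F and DREAM (70.6%), replication (77.5%) and lysosome (75%) lists are void, as under 80% of their members had a window, and their promoters and those of FoxO targets were not printed. Alternatives were no line term, DESeq2 1.42.0 with and without the line, limma 3.58.1 (voom, and the 3 contrasts by line), other scalings and filters, each line left out and a minimum departure.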

Additional observations from a re-analysis of the deposited data

Results flagged for a closer look

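Rftn2, which encodes the lipid raft protein raftlin 2, was called with a departure of 1.60 (adjusted p = 0.0265 by edgeR's quasi-likelihood test), but the lines did not share its direction. On the log2 CPM scale A1005 departed by -1.51, whereas A1129 departed by 1.75 and A1471 by 1.69. It met the condition that 1 line lay on the other side of 0 than the others, and the difference between the lines was not tested.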

How the results depend on the processing

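The count of departing genes depended on whether treatments were compared within lines. Libraries were paired by line, and without that replicate block edgeR called 127 genes, 1 higher and 126 lower, and 0 that changed by less than the sum. DESeq2 without the block called 459, with 74 higher, 385 lower and 0 less than the sum, and all 459 were among the 2241. With the block DESeq2 called 2792 (1188 higher), 2140 of them shared, with 2 less than the sum. limma on the 3 contrasts by line called 3516 (1533 higher), 2160 of them shared, with 13 less than the sum. Leaving out 1 line gave 423 to 1679 genes, 44 to 484 higher, 379 to 1195 lower and 0 to 1 less than the sum, the lowest counts being those without A1471 and the highest those without A1005. A departure of at least 1.5 was held by 487 called genes, 91 higher and 396 lower. A filter on a mean of at least 50 counts left 2 genes that changed by less than the sum. limma-voom, size factors of DESeq2, total counts and no filter on low counts kept the count of departing genes within 1.5 times, at 2320, 2250, 2210 and 2572, and no scaling moved the median departure of all genes above 0.0755. The cause of the differences between tools was not tested.

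None of the genes that changed sign had been called, other than Orm1, whose departure was -1.68 without A1005 and up to 2.10 without another line. Fgfr1 turned to 0.00810 (DESeq2), 0.00845 (DESeq2 without the block), 0.00815 (size factors), 0.0172 (total counts), 0.0199 (mean of at least 50 counts), and ran from -0.12 to 0.0312 with 1 line left out. Fgfr2 turned to 0.26 (DESeq2), 0.60 (voom) and 0.62 (contrasts by line), and Fgfr3 to -0.0261 (no block) and -0.00481 (DESeq2 without the block). With 1 line left out Fgfr3 ran from -0.60 to 1.18 and Frs2 from -0.0621 to 0.20. With a prior count of 0.5 the mean departure of Hgf over the lines was -2.17. Of the named genes' values, 376 kept their side of the threshold, 121 lost it, 2 (both of Hes1) gained it and 15 changed sign. At this depth and with 3 lines, a departure not called is not shown to be absent.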
